A study of Arabidopsis thaliana with 96 samples.

Results

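The stele is the vascular core of the root, and its sorted cells were compared after 48 h against 1 h on standard medium without added salt. The comparison rests on 6 arrays, 3 labelled stele at 48 h and 3 labelled stele at 1 h in standard conditions, out of 96 arrays in the series. All 6 came from roots of Columbia seedlings carrying WOL::GFP, a reporter that lights up the stele, labelled 5 to 7 days after germination. The medium was Murashige and Skoog salts with 1% sucrose in agar. Root cells were freed from their walls as protoplasts, GFP-positive cells were sorted, and RNA was amplified and hybridised to Affymetrix ATH1 arrays. The other 18 standard arrays hold epidermis, cortex and endodermis at 48 h and 1 h, each from its own reporter line (WER::GFP, COR::GFP and SCR::GFP). The remaining 72 arrays are the same 4 cell types in 140 mM NaCl for 1, 3, 8, 20, 32 and 48 h. The labels give both stele groups the same age range and do not say whether replicates came from separate platings. Time on the medium, seedling age and harvest therefore cannot be told apart. The p-values measure only how far arrays spread within groups, pooled over all 96 arrays, perhaps for technical reasons.

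The stele holds xylem, which carries water and minerals to the shoot, phloem, which brings sugar down to the root tip, and the pericycle, the layer around both from which lateral roots start. Sugar leaves the phloem through cell-to-cell channels and through transporters such as the SWEET family, which move sucrose, glucose or fructose across membranes down a gradient. Being the innermost tissue, the stele lies farthest from the oxygen of the medium, and plant cells short of oxygen switch on a core set of transcripts together with fermentation enzymes. Secreted class III peroxidases, expansins and xyloglucan endotransglucosylases loosen or cross-link the cell wall as cells grow and differentiate. No sequence is printed, since no sequence tables were used here.

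Values are the deposited log2 levels, so a change of 1 is a 2-fold difference, and each change is the 48 h mean minus the 1 h mean with its SE from limma. Each SE and p-value uses 1 spread per gene, pooled over the 32 groups of the series. It therefore does not show how far the 6 stele arrays of that gene spread. Calls needed an adjusted p below 0.05 and at least a 2-fold change (1 on the log2 scale). The 6 stele arrays were not equally alike. Standard 1 h replicate 3 correlated with its own group at 0.930 and 0.937 over the genes tested, whereas 1 h replicates 1 and 2 correlated at 0.982. Standard 48 h replicate 2 correlated at 0.961 and 0.981 with its own group and at 0.964, 0.978 and 0.909 with 1 h replicates 1, 2 and 3. The median SD per gene was 0.19 at 48 h and 0.26 at 1 h. A sign of RNA quality also moved with time. For the GAPDH control, the 3′ probe set exceeded the 5′ one by 0.50, 0.69 and 0.64 at 48 h against 0.43, 0.13 and 0.37 at 1 h, with no overlap. Those of actin (3.71, 3.29 and 3.60 at 48 h against 3.13, 3.02 and 3.80 at 1 h) and of ubiquitin (1.21, 0.95 and 1.20 against 1.17, 1.08 and 1.16) overlapped. The part of RNA quality in the results was not tested.

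Of 7281 genes tested, 457 were called in the stele (6.28%), 245 higher at 48 h (3.36%) and 212 lower (2.91%). With the spread taken from the 6 stele arrays alone, 119 were called. Most changes were modest. The median size among called genes was 1.30, 415 changed by less than 2 (log2) and 5 by more than 3. In 407 of the 457 the 3 arrays of 48 h lay wholly beyond the 3 of 1 h, against 27.6% of all genes tested (14% above and 13.6% below). The median change over all tested genes was -0.02. Of the 245 rises 80 started from a 1 h mean below 5, and of the 212 falls 78 ended below 5 at 48 h, close to where signal on these arrays becomes hard to tell from background. Their sizes are therefore less certain.

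The single arrays left a mark on these counts. Among the 245 rises, 1 h replicate 3 was the lowest of the 6 arrays in 195 and 48 h replicate 2 the lowest of its group in 205. Among the 212 falls, 1 h replicate 3 was the highest of the 6 in 90 and 48 h replicate 2 the highest of its group in 139. Thus 48 h replicate 2 tended to lie between the other arrays of 48 h and those of 1 h. With both of these arrays left out, 589 genes were called, 370 of them among the 457 and none in the opposite direction. Left out alone, 1 h replicate 3 gave 394 called genes (325 shared) and 48 h replicate 2 gave 597 (433 shared).

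Of the called genes without overlap between groups, the 12 with the largest change in each direction are described first. The largest rises included genes of carbohydrate and amino acid metabolism, 2 late embryogenesis abundant (LEA) genes and several genes of unknown function. AT1G19530, of unknown function and part of the core hypoxia set, was at 6.55, 4.87 and 6.12 at 48 h against 2.61, 2.18 and 2.46 at 1 h. That is a change of 3.43 (SE 0.45, adjusted p = 1.6e-08). All 3 arrays of 1 h lay in the range that is hard to tell from background, so the size of this change, and its place among the largest, is uncertain. AT3G59480, of the fructokinase family that phosphorylates fructose, was at 8.41, 7.43 and 8.11 at 48 h against 5.35, 5.84 and 4.13 at 1 h (change 2.88, SE 0.34). MGL, methionine gamma-lyase, which breaks down methionine, was at 9.19, 7.89 and 8.88 against 5.92, 5.94 and 6.12 (change 2.66, SE 0.34). Its 1 h arrays agreed closely, and its 48 h arrays all lay above 7.8. AT1G70500, of the pectin lyase-like superfamily of wall enzymes, was at 9.63, 7.91 and 9.14 at 48 h against 6.44, 6.92 and 5.02 at 1 h (change 2.77, SE 0.37).

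The other large rises spread over unlike families. AT3G19200, of unknown function, was at 6.94, 6.39 and 6.64 against 3.90, 4.18 and 3.95 (change 2.65, SE 0.24). Its replicates lay close together, but all its 1 h arrays were below 5, so the size of its change is less certain. AT5G59845, of the GASA family of small gibberellin-regulated secreted peptides, changed by 2.55 (SE 0.32), and AT3G01260, of the galactose mutarotase-like superfamily, by 2.47 (SE 0.19). AT3G01260 was at 6.09, 4.36 and 5.74 at 48 h against 2.90, 3.12 and 2.75 at 1 h, so that only its 48 h arrays came near or above the level of 5. AT1G75600, a histone H3-type gene, changed by 2.33 (SE 0.33) from a similarly low 1 h level of 2.61, 3.02 and 2.46. AT4G18425, of the DUF679 membrane proteins, changed by 2.30 (SE 0.32). The highest adjusted p among the 24 largest changes, 12 in each direction, was 6.7e-05.

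The largest falls likewise came from unlike gene families. AT3G18450, of the PLAC8 family, was at 3.99, 5.09 and 4.48 at 48 h against 7.87, 7.57 and 7.53 at 1 h, a change of -3.14 (SE 0.19, adjusted p = 1.6e-22). AT5G48430, an aspartyl protease family gene, was at 6.65, 7.75 and 7.27 against 10.30, 10.08 and 10.46 (change -3.06, SE 0.29). The dirigent-like gene AT4G11190, whose family guides the coupling of phenolic radicals, was at 4.54, 4.40 and 4.99 against 7.79, 7.78 and 7.40 (change -3.01, SE 0.29). Each of these 3 was bright at 1 h and near or not far above the level of 5 at 48 h, apart from AT5G48430, which stayed above 6.6 in every array. AT2G36690, of the 2-oxoglutarate-dependent oxygenases, was at 4.11, 4.27 and 4.02 against 6.72, 6.29 and 8.41 (change -3.01, SE 0.28).

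AT2G43140, a basic helix-loop-helix transcription factor gene, changed by -2.54 (SE 0.21) and AT2G43620, of the chitinase family, by -2.47 (SE 0.25). Both AT3G11370 (-2.32, SE 0.23) and AT5G40590 (-2.29, SE 0.42) encode proteins of the cysteine- and histidine-rich C1 domain type. AT5G62420, of the aldo-keto reductases, was at 4.86, 4.82 and 4.86 at 48 h against 6.77, 6.82 and 7.45 at 1 h (change -2.17, SE 0.30). AT2G16005, with an MD-2-related lipid recognition domain, changed by -2.15 (SE 0.42), and AT1G07690, of unknown function, by -2.27 (SE 0.27). AT1G14550, a class III peroxidase gene, was at 8.37, 8.12 and 8.42 against 10.19, 9.32 and 11.65 (change -2.08, SE 0.40). Its 1 h arrays spread over more than 2, and its 48 h arrays over less than 0.4.

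**Figure D1:**
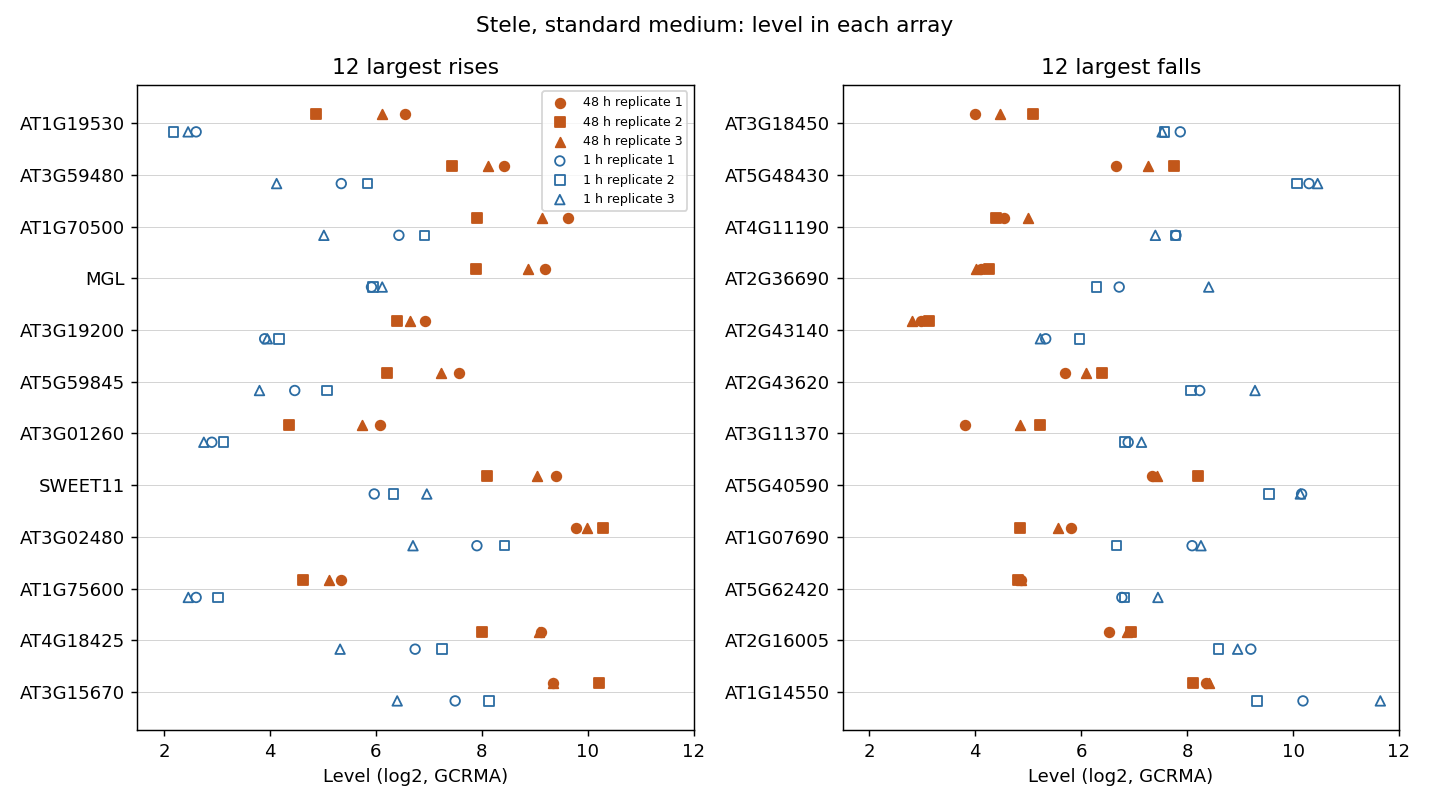
Level of the 12 largest rises and the 12 largest falls among called genes without overlap, in each of the 6 stele arrays (horizontal axis, log2 level; 48 h filled and above, 1 h open and below; circle, square and triangle are replicates 1, 2 and 3). The genes were chosen not to overlap between the groups, and the 48 h square often lies closest to the 1 h arrays.

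Sugar transport genes were higher at 48 h where called. Of 9 tested SWEET genes, 3 were higher at 48 h and none was lower. SWEET11, a plasma membrane transporter that in leaves loads sucrose into the phloem, was at 9.39, 8.10 and 9.04 at 48 h against 5.97, 6.33 and 6.96 at 1 h, a change of 2.42 (SE 0.44, adjusted p = 2.1e-05). SWEET3 was at 5.70, 5.74 and 5.98 against 3.55, 3.62 and 3.51 (change 2.24, SE 0.16). SWEET16, a vacuolar sugar transporter, was at 7.67, 6.15 and 7.57 against 5.98, 5.59 and 6.0 (change 1.27, SE 0.25). SWEET3 replicates agreed within 0.3, while 48 h replicate 2 of SWEET16 stood just above the 1 h arrays. The 1 h arrays of SWEET3 all lay below 5, so the size of its change is less certain. The 6 members not called ranged from -0.41 to 0.62, and the list's median was 0.34 (0.56 without both arrays that stood apart). Of all genes tested, 6.28% were called. For SWEET11, SWEET3 and SWEET16 the calls were kept without any single stele array and without both arrays that stood apart.

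Genes of sugar use and fermentation were higher where they were called. Of 5 tested genes of fermentation and sucrose breakdown, 2 were higher and none was lower (median 0.37, with 6.28% of all genes called and 3.36% higher), namely AT3G59480 and PDC2, a pyruvate decarboxylase gene of ethanol fermentation. PDC2 was at 9.14, 8.53 and 8.83 at 48 h against 8.05, 8.16 and 7.12 at 1 h (change 1.06, SE 0.23), and at 0.73 without 1 h replicate 3, or 0.9 without 48 h replicate 1, it no longer met the minimum change. Sugar starvation genes, which cells turn on when carbohydrate runs short, had 2 of 6 higher and none lower (median 0.59), beside the same shares of all genes. With both arrays that stood apart left out, it had 3 higher and a median of 0.98. The 2 called genes, IVD and MCCA, belong to leucine breakdown. IVD, isovaleryl-CoA dehydrogenase, was at 8.00, 7.47 and 7.90 against 6.54, 6.21 and 6.50 (change 1.37, SE 0.18). MCCA, a subunit of methylcrotonyl-CoA carboxylase, was at 8.32, 7.34 and 8.04 against 6.52, 6.54 and 6.55 (change 1.36, SE 0.26), and the 4 members not called ranged from 0.26 to 0.63.

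Core hypoxia-responsive genes had 7 of 24 tested members higher and none lower (29.2% called against 6.28% of all genes), with a median of 0.23 (0.10 without 48 h replicate 1 and 0.37 without both arrays that stood apart). Besides AT1G19530 and PDC2, AT3G10020 was at 10.50, 9.21 and 9.95 at 48 h against 7.34, 7.32 and 8.82 at 1 h (change 2.06, SE 0.29). AT4G27450 changed by 1.91 (SE 0.41), AT4G39675 by 1.89 (SE 0.46), AT1G33055 by 1.71 (SE 0.36) and AT2G15880 by 1.60 (SE 0.26). In all 7 the arrays of 48 h lay above those of 1 h. The same held for 222 of the 245 rises, against 14% of all genes tested. The other 17 members ranged from -0.70 to 0.57, so the rise covered part of the set only. Other members of this set commonly used as its signature are not analysed here.

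LEA and dehydrin genes encode hydrophilic proteins that protect cells in drying seeds and stressed tissue. Of 20 tested, 6 were higher and 1 was lower at 48 h, together 35% against 6.28% of all genes, with a median of 0.58 (0.38 without 48 h replicate 1). AT3G02480 was at 9.79, 10.29 and 9.98 at 48 h against 7.91, 8.43 and 6.70 at 1 h (change 2.34, SE 0.26), and AT3G15670 at 9.34, 10.21 and 9.34 against 7.50, 8.14 and 6.40 (change 2.28, SE 0.36). In both, 48 h replicate 2 was the highest array, unlike in most rises. AT5G66780 changed by 1.99 (SE 0.39), AtLEA4-1 by 1.78 (SE 0.30) and LEA4-5 by 1.48 (SE 0.29), the last with 0.98 and no call without 1 h replicate 3. The exception, AT3G53770, was at 3.42, 4.60 and 3.92 against 5.70, 6.08 and 5.45 (change -1.76, SE 0.24). The 3 tested genes of abscisic acid and dehydration response gave no call, and 1 without 1 h replicate 2. LTI30, a dehydrin gene, was nonetheless high in every array, at 13.14, 13.21 and 13.13 against 12.58, 12.79 and 11.68. Its change of 0.81 (adjusted p = 1.7e-07) missed only the minimum change, as did that of COR47 (0.40, adjusted p = 0.0030). The remaining gene, COR15A, changed by -0.03.

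Class III peroxidases, a large family of secreted enzymes that oxidise phenolics and build or loosen walls, moved in both directions. Of 40 tested, 3 were higher and 8 were lower, 27.5% against 6.28% of all genes, and the list's median was -0.35 (-0.54, with 5 higher and 10 lower, without 48 h replicate 2). AT5G51890, expressed in vessels, was at 11.52, 10.56 and 11.36 at 48 h against 9.16, 9.69 and 8.10 at 1 h (change 2.16, SE 0.37). AT1G49570 was at 5.09, 5.33 and 5.40 against 3.49, 3.58 and 3.43 (change 1.77, SE 0.16), with replicates within 0.4 of each other. All its 1 h arrays lay below 5, so the size of its change is less certain. On the other side stood AT1G14550, Prx37 and AT5G64120. Prx37 was at 7.19, 7.19 and 7.12 against 9.52, 8.75 and 8.16 (change -1.64, SE 0.28), and AT5G64120 at 8.92, 9.05 and 8.92 against 10.83, 10.10 and 10.84 (change -1.62, SE 0.28). In these 3 genes the 48 h arrays lay closer together than the 1 h arrays.

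Genes of wall extension were lower where called. Xyloglucan endotransglucosylases, which cut and rejoin the xyloglucan that ties cellulose fibrils, had 3 of 8 lower and none higher (median -0.51), against 2.91% of all genes lower. XTH26 was at 4.32, 5.33 and 4.99 at 48 h against 7.09, 6.96 and 6.71 at 1 h (change -2.04, SE 0.37). XTH33 changed by -1.26 (SE 0.27) and XTH16 by -1.09 (SE 0.25), and they fell short of the minimum change, at -0.96 for XTH33 without 1 h replicate 1 and -0.91 for XTH16 without 1 h replicate 3. Of 5 expansins, which loosen walls, only EXPA15 was called (-1.16, SE 0.38), and this call rested on 1 h replicate 3. Its levels were 5.60, 5.71 and 5.38 at 48 h against 5.86, 5.74 and 8.57 at 1 h, and the change without that array was -0.24 (adjusted p = 0.70). The call was also lost without 48 h replicate 1 or 3 (-1.18 and -1.07). Without 48 h replicate 2, in contrast, 3 of the 5 expansins were lower, and the list's median was -1.03 in place of -0.67. The trichome birefringence-like family, which acetylates wall polysaccharides, had 2 of 16 lower (12.5%) and none higher, a share not far from the 6.28% of all genes called, namely TBL30 (-1.51, SE 0.23) and TBL19 (-1.49, SE 0.26).

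**Figure D2:**
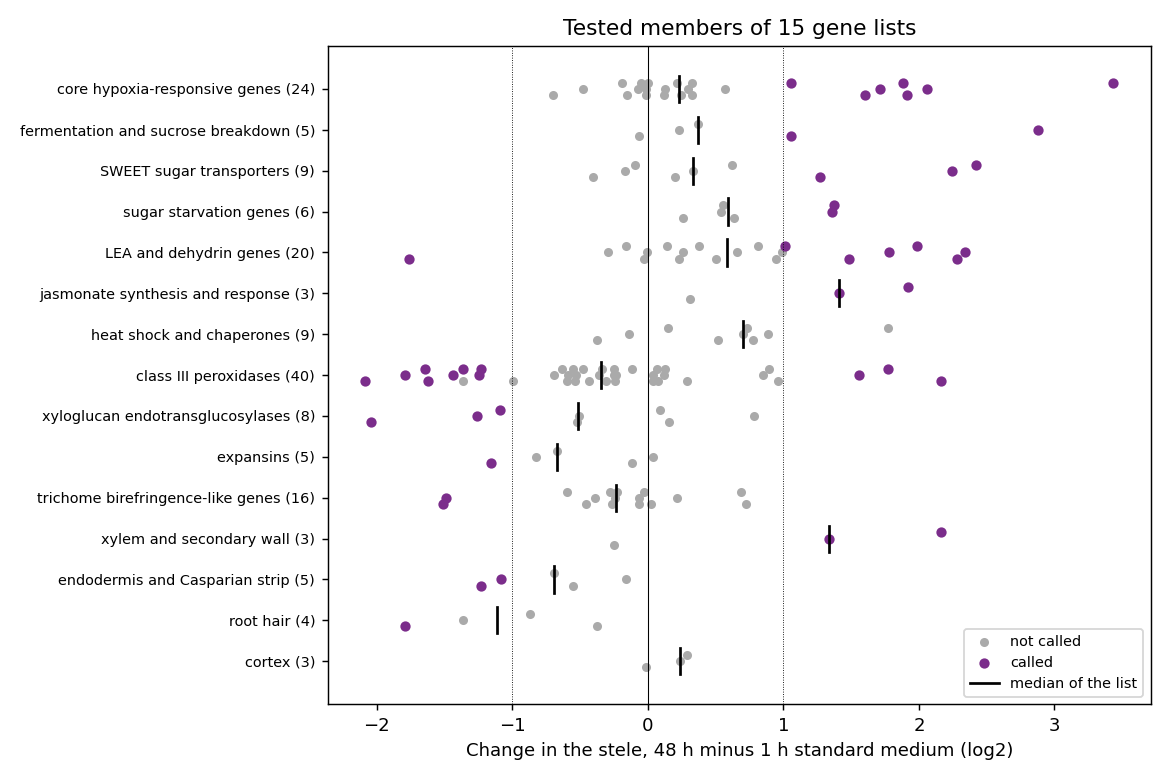
Change in the stele (48 h minus 1 h, log2) of every tested member of 15 gene lists, with the number of tested members in brackets; purple points were called, grey points were not, black bars are list medians and dotted lines mark a change of 1. Purple points lie only to the right for the hypoxia, SWEET and sugar starvation lists and on both sides for the peroxidases.

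Defining transcripts of the root's tissues were compared between 48 h and 1 h within the stele arrays. Their levels were not set against the other cell types here, so the stele label itself was not tested. Many standard stele markers are not analysed here, so that 8 tested genes stand for its parts. For xylem, AT5G51890 and GUT2 were higher at 48 h, and PHV, a transcription factor gene of vascular patterning, was at 4.96, 4.37 and 5.00 against 4.63, 4.80 and 5.65 (-0.25, adjusted p = 0.37). GUT2, a glucuronoxylan synthase gene of secondary walls, was at 7.98, 7.00 and 7.56 at 48 h against 6.37, 6.57 and 5.58 at 1 h (change 1.34, SE 0.25). For phloem, SWEET11 was higher, and OPS, needed for phloem differentiation, was at 4.73, 4.03 and 4.17 against 3.79, 4.25 and 3.89, below 5 in every array. For the pericycle, AT4G30450 was at 10.24, 9.77 and 10.12 against 8.70, 9.01 and 8.48 (change 1.32, SE 0.32), and LBD16, a lateral root gene, at 8.66, 8.57 and 8.49 against 8.39, 8.78 and 7.16 (0.47, adjusted p = 0.27). LHW, a regulator of vascular cell number, lay at 4.59, 4.19 and 4.35 against 4.10, 4.52 and 5.50 (-0.33, adjusted p = 0.24). Of these 8 genes 4 were called, all of them higher at 48 h, against 6.28% of all genes called and 3.36% higher.

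Markers of neighbouring tissues moved the other way or gave no call. All 5 tested endodermis and Casparian strip genes had a negative change (median -0.69, and -0.45 without 1 h replicate 1), and 2 were called. Of all genes tested, 2.91% were called lower and 47.9% had a positive change. GSO1, a receptor kinase gene needed to close the Casparian strip, was at 8.08, 8.10 and 8.05 at 48 h against 9.84, 8.85 and 8.78 at 1 h (change -1.08, SE 0.23). AT1G44970, a peroxidase gene of the same tissue, was at 8.79, 9.06 and 8.86 against 10.68, 9.86 and 9.88 (change -1.23, SE 0.29). Both calls were lost without 1 h replicate 1 (-0.74 for GSO1 and -0.97 for AT1G44970). The mean level over the 5 genes was 8.40, 8.48 and 8.36 at 48 h against 9.72, 9.05 and 8.71 at 1 h. The lowest of the 5 was JKD, a transcription factor gene of the ground tissue, which lay below 5 in every array at 4.01, 4.15 and 3.90 against 4.80, 4.24 and 3.51.

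Root hair genes, which mark the epidermis, all had negative changes too (4 of 4, median -1.12), with a mean level of 8.33, 9.27 and 8.68 at 48 h against 9.80, 9.99 and 9.79 at 1 h. Of all genes tested, 2.91% were called lower and 47.9% had a positive change. The root hair list fell outside the stele as well. Its median change was -2.16 for epidermis arrays, and all 4 genes were called lower there. For endodermis arrays the median was -1.18 and for cortex arrays -0.63, each with 1 gene called lower. Among the 4 root hair genes only AT1G34510, a peroxidase gene, was called in the stele. It was at 6.50, 7.32 and 6.80 against 8.45, 8.49 and 9.04 (change -1.79, SE 0.59, adjusted p = 0.020). That call was lost without 1 h replicate 3, 48 h replicate 1 or 48 h replicate 3 (adjusted p = 0.090, 0.093 and 0.059), whereas 2 of the 4 genes were called without 48 h replicate 2. EXPA7, an expansin of hair initiation, was bright in the stele sort, at 9.38, 10.34 and 9.68 against 10.14, 10.44 and 9.95. The 3 cortex markers gave no call (-0.01 to 0.29), and of these AT1G09750 lay at 3.33, 3.58 and 3.40 against 3.76, 3.53 and 3.07. AGL42, a MADS-box gene expressed in the quiescent centre of the tip, was at 5.85, 5.89 and 5.66 at 48 h against 4.30, 3.49 and 4.18 at 1 h (change 1.81, SE 0.37). Fewer cells of a type and less RNA per cell cannot be told apart in these arrays, and the part of such cell mixtures in the changes above was not tested.

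**Figure D3:**
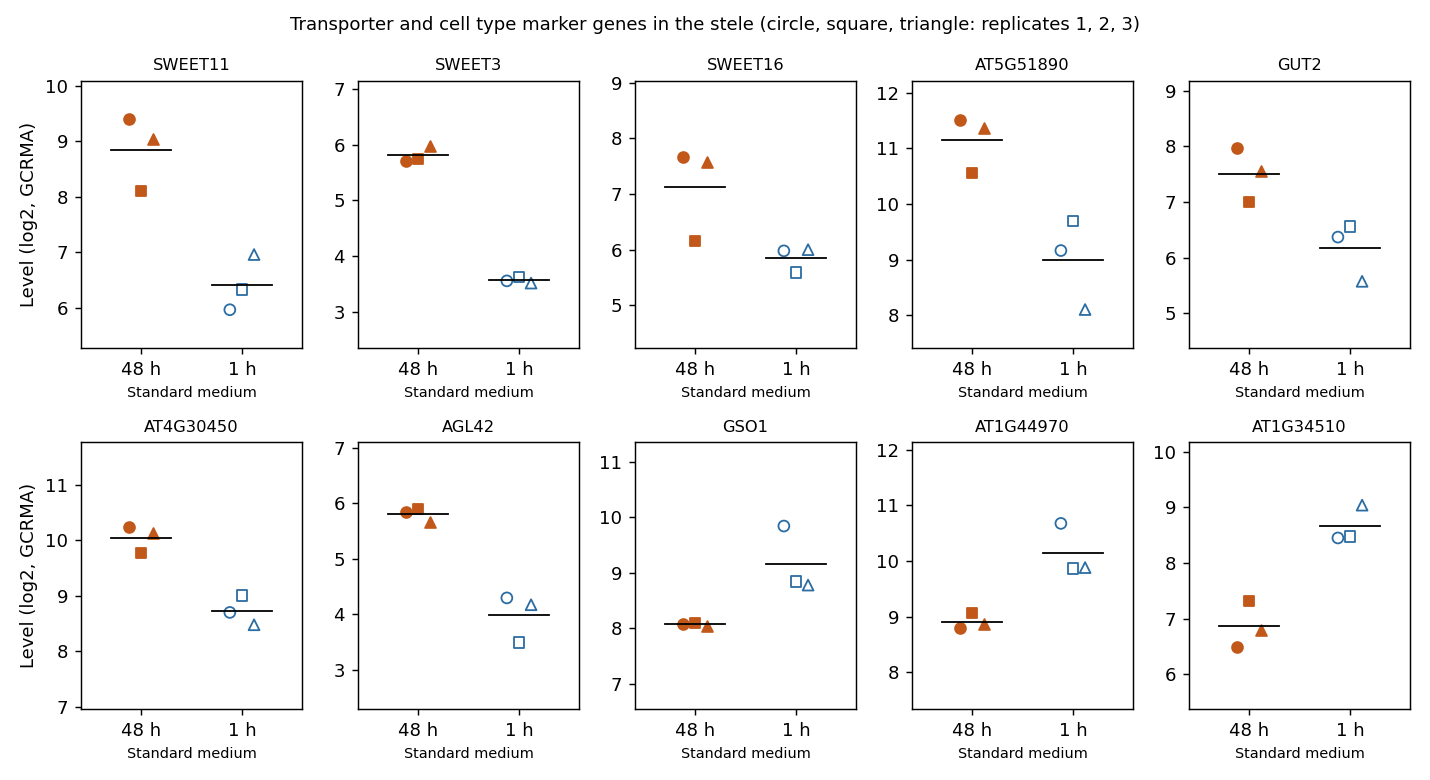
Levels (vertical axis, log2, each panel spanning the same height) of SWEET transporters and of marker genes for xylem, pericycle, tip, endodermis and root hair in the stele at 48 h (left, filled) and 1 h (right, open); bars are means of 3 arrays. Only called genes are plotted, and uncalled ones such as SWEET1, PHV, OPS, LBD16 and LHW are not shown. Of those plotted, the transporter, xylem and pericycle genes are higher at 48 h, and GSO1, AT1G44970 and AT1G34510 are lower.

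Hormone lists held few tested genes, and the shares below stand beside 6.28% of all genes. Of 3 jasmonate genes 2 were higher, and both encode oxygenases that inactivate jasmonate. JRG21 was at 6.69, 5.23 and 6.50 at 48 h against 4.11, 4.51 and 4.03 at 1 h (change 1.92, SE 0.40), and AT2G38240 at 11.66, 11.22 and 11.60 against 10.20, 10.62 and 9.43 (change 1.41, SE 0.29). Among 9 auxin genes only GH3.3, which conjugates auxin to amino acids, was called (1.19, SE 0.37), at 9.61, 9.95 and 9.71 against 9.03, 9.25 and 7.42. Without 1 h replicate 3 its change was 0.62 (adjusted p = 0.30), and without 1 h replicate 2 the list had 2 calls. RTE1, a regulator of an ethylene receptor, was the only call among 3 ethylene genes (1.09, SE 0.17; 0.85 and not called without 1 h replicate 2), and 3 gibberellin genes gave no call. Of 7 touch, wound and rapid stress genes 2 were lower, the transcription factor gene WRKY53 (-1.18, SE 0.35) and EXO (-1.04, SE 0.30). Neither call held without 1 h replicate 3 (-0.86, adjusted p = 0.12 for WRKY53, and -0.27, adjusted p = 0.56 for EXO). WRKY53 also lost its call without 48 h replicate 1 (-0.87), and EXO without 48 h replicate 2 (-0.95).

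No heat shock gene was called, but single arrays weighed heavily on their levels. AT1G53540, a small heat shock protein gene, was at 9.56, 7.38 and 9.0 at 48 h against 6.35, 5.43 and 8.85 at 1 h (1.77, adjusted p = 0.051). Over the 9 tested members the mean level was 8.78, 7.58 and 8.43 at 48 h against 7.35, 7.05 and 8.71 at 1 h, so that 1 h replicate 3 sat with the 48 h arrays and 48 h replicate 2 near the 1 h arrays. Without 1 h replicate 3, 3 of the 9 were called higher, and without 48 h replicate 2, 2 were. With these 2 arrays left out, 4 of the 9 were called higher and AT1G53540 had a change of 3.39. Under quantile normalization or median centring AT1G53540 alone was called (1.75 in both).

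Other families held few changes, and the counts below stand beside 6.28% of all genes called (3.36% higher and 2.91% lower). TET5, a tetraspanin gene, was at 7.77, 6.61 and 7.38 at 48 h against 5.72, 6.13 and 4.57 at 1 h (change 1.78, SE 0.43), the only call among 8 tetraspanins. UBC29, a ubiquitin-conjugating enzyme gene, was at 8.24, 8.21 and 8.36 against 6.90, 7.12 and 5.70 (change 1.70, SE 0.28). It was the only call of 19 in its list (5.26%), near the share of all genes. Lipid transfer type genes had 2 of 7 higher, AT4G33550 (1.40, SE 0.35) and AT2G37870 (1.40, SE 0.32). UDP-glycosyltransferases, which attach sugars to small molecules, had 2 of 33 higher and 3 lower (1 and 2 without 48 h replicate 1), led by UGT73C7 (1.55, SE 0.26) and UGT76D1 (-1.55, SE 0.18). Of 12 cytochromes P450, CYP71B23 (-1.43, SE 0.25) and CYP71B29 (-1.09, SE 0.20) were lower. CYP71B29 was not called without 1 h replicate 3 (-0.81) or without 1 h replicate 1, where it fell just short of 1 in size. Without 1 h replicate 2 the list had 1 higher and 4 lower. Genes of DNA replication and cell division (4 tested), nitrate uptake and response (3) and the circadian clock (1) gave no call.

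To ask whether these changes belonged to the stele or to roots in general, the same contrast was run in the other cell types, on separate arrays. Called genes numbered 136 in the epidermis (1.87%), 172 in the cortex (2.36%) and 167 in the endodermis (2.29%). Replicates were not equally alike across cell types. Arrays correlated with their own group at 0.933 to 0.959 on average in stele 1 h and 0.940 to 0.968 in epidermis 48 h. In the cortex they did so at 0.992 to 0.996. The part of this in the counts was not tested. Fitted on its 6 arrays alone, the stele had 119 called genes, a fit not run for the other types. Of the 245 stele rises 60 were also called higher in the cortex (1.18% of all genes were), 29 in the epidermis (0.755%) and 24 in the endodermis (0.824%). Of the 212 falls 39 were also lower in the cortex (1.18%), 37 in the epidermis (1.11%) and 33 in the endodermis (1.47%). The 4 contrasts share no arrays, but they share the pooled spread of each gene, so their calls are not fully independent. In all 4 cell types, 12 genes were called in the same direction. The stele change minus the mean change of the other 3 was tested directly and called in 166 genes (2.28%), 101 positive (1.39%) and 65 negative (0.893%), of which 148 were also called in the stele. The genes called for the difference depended on single stele arrays. Without 48 h replicate 1, 2 or 3 they numbered 109, 270 and 129, of which 96, 154 and 120 were among the 166. Without 1 h replicate 1, 2 or 3 they numbered 147, 311 and 158, of which 121, 162 and 97 were among the 166.

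The largest excess in the stele by fitted value was in AT1G19530, with the same limit on its size. Its change of 3.43 in the stele stood beside 0.71 in the cortex, 0.32 in the epidermis and 0.19 in the endodermis (difference 3.03, SE 0.52, adjusted p = 6.3e-05). AT3G01260 (difference 2.35, SE 0.22), AT5G59845 (2.33, SE 0.37), AT1G70500 (2.21, SE 0.43), AT4G18425 (2.11, SE 0.37) and AT1G47410 (2.06, SE 0.33) followed. All 3 called SWEET genes differed as well. SWEET11 changed by 0.45 in the epidermis, 1.88 in the cortex and -0.13 in the endodermis (difference 1.69, SE 0.51), SWEET3 had a difference of 1.76 (SE 0.19) and SWEET16 one of 1.24 (SE 0.29). So did the xylem genes AT5G51890 (1.43, SE 0.43) and GUT2 (1.25, SE 0.28), and 3 of the hypoxia list. On the negative side stood AT1G49000 (-1.71, SE 0.37), the receptor kinase gene AT2G28970 (-1.69, SE 0.22), AT1G07690 (-1.66, SE 0.31) and AT5G62420 (-1.53, SE 0.35).

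Other large changes did not pass the test of the difference, though cell types varied. AT3G18450, the largest fall in the stele, changed by -2.57 in the endodermis, -2.41 in the cortex and -2.04 in the epidermis, and its difference of -0.80 was not called. AGL42 changed by 1.81 in the stele, 2.62 in the endodermis, 2.67 in the cortex and 0.22 in the epidermis. XTH26 changed by -2.29 in the epidermis and -1.95 in the cortex but by -0.13 in the endodermis, where it averaged 3.13 at 48 h and 3.26 at 1 h. AT3G15670 changed by 1.06, 1.70 and 2.23 in epidermis, cortex and endodermis. The root hair peroxidase AT1G34510 changed by -2.5 in the epidermis, -2.08 in the cortex and -0.74 in the endodermis, where it was not called, and its difference was -0.02.

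**Figure D4:**
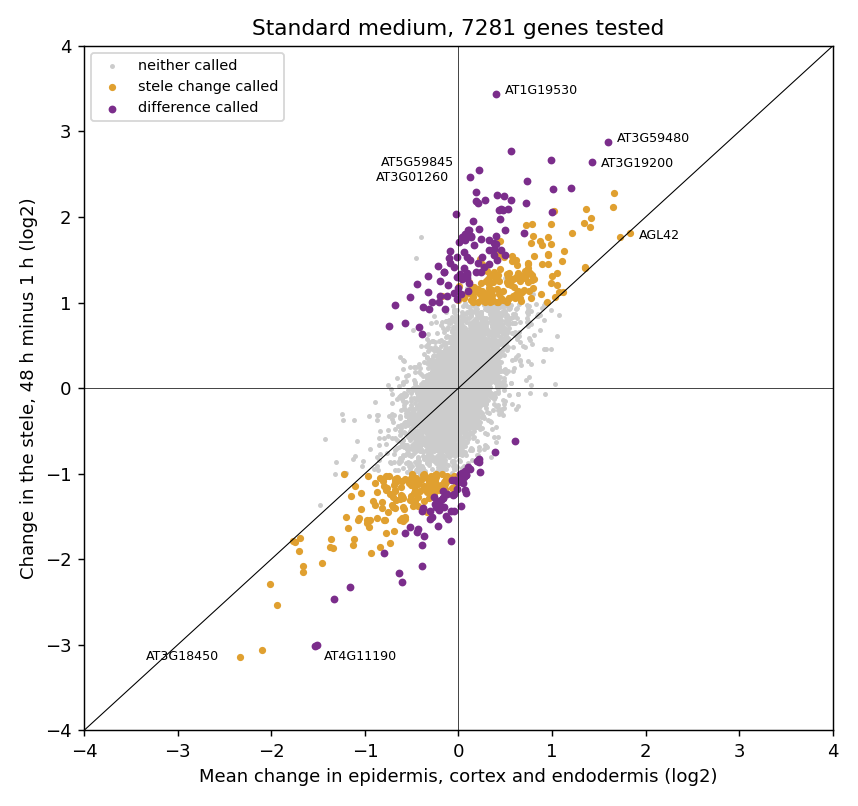
Change in the stele (vertical axis) against the mean change in epidermis, cortex and endodermis (horizontal axis), both 48 h minus 1 h in standard medium (log2), for 7281 genes; orange points were called in the stele, purple points were called for the difference and the line marks equal change. AT1G19530 and AT3G01260 lie near the vertical axis, while AT3G18450 and AGL42 lie near the line.

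The stele arrays in salt, which entered the choice of genes only through the filter on low levels and the shared spread, show where the called genes otherwise lie. The standard means that define nearness also chose the genes, so the shares are a description with no test. After 1 h in 140 mM NaCl the mean level was nearer the 48 h than the 1 h standard group in 209 of the 245 rises (85.3%) and 196 of the 212 falls (92.5%), against 62.3% of all genes tested. After 48 h of NaCl it was nearer the 48 h standard group in 69.8% of the rises and 88.7% of the falls, against 57.4% of all genes. After 20 h the share of the rises, 58.4%, was close to that of all genes. At every one of the 6 salt times this held for 155 of the 212 falls and 101 of the 245 rises (73.1% and 41.2%, against 36.3% of all genes). Leaving out 1 h replicate 3 gave 193 rises and 189 falls nearer the 48 h group after 1 h of salt, beside 68.5% of all genes.

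Named genes show both patterns. AT1G70500 averaged 8.66 after 1 h and 9.71 after 48 h of salt, beside 8.89 in standard medium at 48 h and 6.13 at 1 h. AT5G51890 averaged 10.73 and 11.21 in salt at these times, beside 11.15 and 8.99 in standard medium at 48 h and 1 h. For both genes the standard 1 h group is the lowest of the 8 stele conditions. AT3G18450 averaged 2.96 and 2.61 in salt, beside 4.52 and 7.66 in standard medium, so that the 1 h group is here the highest of the 8. SWEET3 and AT3G01260 behaved otherwise. SWEET3 averaged 4.11 after 1 h and 3.43 after 48 h of salt, and AT3G01260 2.81 and 3.35, close to their standard 1 h levels of 3.56 and 2.93 and below their 48 h levels of 5.81 and 5.39. For these 2 genes the standard 48 h group is the highest of the 8.

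**Figure D5:**
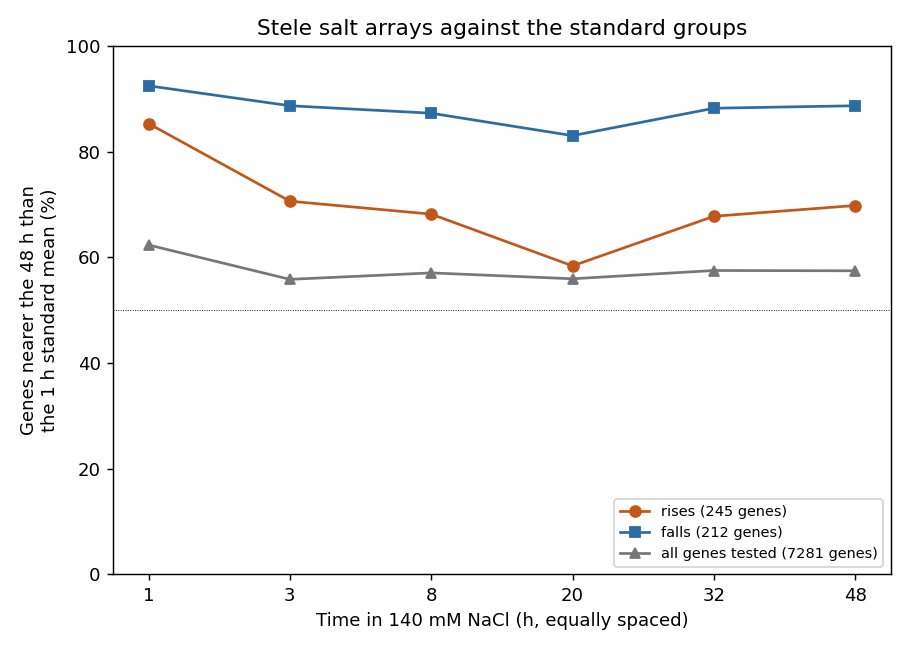
Share of genes (vertical axis, %) whose stele mean in 140 mM NaCl lay nearer the 48 h than the 1 h standard group, by time in salt (horizontal axis, h), for the 245 rises, the 212 falls and all 7281 genes. Falls lie between 83.0% and 92.5% and all genes between 55.8% and 62.3%.

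The salt arrays also show in which tissue the called genes were highest, with levels taken from no standard array. The genes themselves were chosen on the stele standard arrays, so these shares too are a description with no test. Averaged over the 6 salt times, the stele had the highest level of the 4 cell types in 130 of the 245 rises (53.1%), against 58 of the 212 falls (27.4%) and 19.2% of all genes tested. The endodermis had it in 20 rises (8.16%) and 61 falls (28.8%), beside 20.7% of all genes, and the cortex likewise in 20 rises and 61 falls, beside 16.1%. The epidermis had it in 75 rises (30.6%) and 32 falls (15.1%), beside 44.0%.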

How the data were processed

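The deposited values are log2 expression levels that the authors computed with GCRMA in Affymetrix Expression Console (no versions), per the submitters' processing notes; GCRMA corrects background by probe sequence and normalizes across arrays, so levels are relative to the other arrays. No counts or detection calls were used, and the number of arrays limits the precision. Of 22810 probe sets, 13513 pair with 1 gene in the platform annotation of 2016; the brightest was kept per gene, and genes with a mean of 5 or more in at least 1 of 32 groups were tested (7281). Symbols follow TAIR10.1. One mean per group over 96 arrays was fitted with limma 3.58.1 in R 4.3.3 (64 residual degrees of freedom), moderated by eBayes, two-sided, with Benjamini-Hochberg adjustment over all genes tested. The fit was tested on simulated data. Named genes are the 12 largest rises and falls without overlap, the 6 largest differences each way, up to 6 called or 4 uncalled members per list, and all markers. Members and lists were chosen with earlier results of these data known. Alternatives covered samples, scaling, filters, probe sets, replicate block, array weights, moderation, the fold threshold and leaving out each array.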

Additional observations from a re-analysis of the deposited data

Results flagged for a closer look

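A difference between the stele and the mean of the other 3 cell types in the 48 h minus 1 h change was found by limma in 166 genes (adjusted p at most 0.05 and a difference of at least 1). Stele arrays and those of the other types come from different reporter lines and sorts, which cannot be told apart from cell type. Among the named genes, positive differences (log2) were 3.03 for AT1G19530, 2.35 for AT3G01260, 2.33 for AT5G59845, 2.21 for AT1G70500, 2.11 for AT4G18425 and 2.06 for AT1G47410. Transporters and membrane proteins followed with 1.76 for SWEET3, 1.69 for SWEET11, 1.24 for SWEET16 and 1.65 for TET5. The peroxidases AT1G49570 and AT5G51890 had 1.73 and 1.43 and the xylan gene GUT2 1.25. Hypoxia list members AT1G33055 and AT3G10020 had 1.70 and 1.06. The others were MGL at 1.67, AT1G75600 at 1.32, UBC29 at 1.32, AT3G59480 at 1.28, AT3G19200 at 1.22 and the LEA gene AT3G02480 at 1.14.

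Negative differences were -1.71 for AT1G49000, -1.69 for AT2G28970, -1.66 for AT1G07690, -1.53 for AT5G62420, -1.5 for AT2G36690 and -1.48 for AT4G11190. In wall genes they were -1.36 for TBL19, -1.22 for TBL30, -1.21 for Prx37 and -1.11 for AT1G44970. CYP71B23 had -1.22, CYP71B29 -1.12, AT3G11370 -1.16 and AT2G43620 -1.14. Adjusted p reached 0.046 at most in these genes. AT1G49000 overlapped between the stele groups, at 2.93, 3.76 and 3.23 at 48 h against 5.03, 3.64 and 6.62 at 1 h.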

How the results depend on the processing

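The 457 genes called in the stele became 119 (55 rises, 64 falls) when the 6 stele standard arrays were fitted alone, with 4 residual degrees of freedom among samples, and 1568 (817 rises, 751 falls) with no minimum change. With every probe set, named or not, 864 of 13674 were called (an alternative chosen after seeing the data). Leaving out 1 stele array gave 370 to 623 called genes, 201 to 326 rises and 169 to 297 falls. The 166 differences became 104 with the 24 standard arrays alone, 420 with no minimum change, 313 without both arrays that stood apart (also chosen after seeing the data) and 109 to 311 with 1 array left out. The other alternatives kept these counts within 1.5 times, and array weights used the gene-by-gene estimate because the default did not converge. Similar counts did not always hold the same genes. With array weights 369 of 482 called genes were among the 457, and 131 of 248 differences were among the 166. No called named gene changed sign, and no uncalled one was called in the opposite direction. Uncalled genes could change sign, as LHW did (-0.33, and 0.06 without 1 h replicate 3). Of 81 called named genes, 39 kept the call with the 6 arrays alone and 68 without 1 h replicate 3. Of the 24 largest changes without overlap, 19 kept it with the 6 arrays, the others being AT1G07690, AT1G14550, AT1G70500, AT3G15670 and AT4G18425, and all 24 under the other alternatives. Same-numbered arrays of 48 h and 1 h deviated together at -0.20, 0.26 and 0.12, and differently numbered ones at -0.30 to 0.29. With 3 arrays a group, these values cannot show whether the numbers pair the arrays. The fit with the replicate block called 459 genes and 168 differences. No detection calls were used, so levels under 5 are uncertain.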

Other observations

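The 6346 tested probe sets that pair with no single gene in the annotation used here behaved like the named ones in number. Of these, 405 were called in the stele (6.38%), 268 higher and 137 lower at 48 h. Rises thus made up a larger part there than among the named genes, where 245 were higher and 212 lower.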
